A study of Rattus norvegicus with 6 samples.

Results

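A set of 9 genes widely read as markers of cellular senescence was followed in auditory cells after knockdown of the RNA-binding protein AUF1: Cdkn1a, Cdkn2a, Cdkn2b, Cdkn2c, Rb1, Glb1, Lmnb1, Hmgb1 and Hmgb2. They were taken by gene symbol from a table of 18718 genes, each of the 9 matched 1 row, and 9 of 9 passed the filter on low counts that left 12268 genes for testing. The siHnrnpd group held 3 total RNA libraries of the line HEI-OC1, labelled AUF1 knock down, in which an siRNA targeted Hnrnpd, the gene of AUF1. The control group held 3 libraries of the same line with a control siRNA. Neither the siRNA dose nor the time of harvest is given in the labels. HEI-OC1 is an established line from the organ of Corti, generally known as a mouse line immortalized with a temperature-sensitive SV40 large T antigen, a viral protein that binds the Rb and p53 proteins; the labels list rat, the gene models are rat, and whether the reads are from rat or mouse was not tested. Nothing in the labels says that libraries of a group came from separate cultures, so every p-value reflects library-to-library spread only, which may be technical.

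Senescence is a lasting exit from the cell cycle. Cyclin-dependent kinase inhibitors such as p21 (Cdkn1a) and p16 (Cdkn2a) keep the Rb protein in its growth-restraining form, in which it holds back E2F transcription factors. In many cell types senescent cells also carry more lysosomal beta-galactosidase (Glb1), lose lamin B1 (Lmnb1) from the nuclear envelope, and have less Hmgb1 and Hmgb2 in their chromatin. AUF1, known mainly for binding AU-rich elements in mRNA, has been linked to the decay of several mRNAs of cell cycle regulators, Cdkn1a and Cdkn2a among them.

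Libraries held 28984535 to 35842904 gene counts. The siRNA target, listed as Hnrpd, had 177, 200 and 183 CPM (counts relative to the library size after TMM scaling) in siHnrnpd 1 to 3, against 319, 303 and 269 CPM in controls 1 to 3, and no siHnrnpd library reached the lowest control (log2 change -0.67; edgeR adjusted p = 0.0426). Among markers of hair cells, 1 of 9 matched rows (Myo6) reached a mean of 1 CPM, while Atoh1, Pou4f3 and Tmc1 had no matched row and were not analysed here. Summed over the hair cell rows the level was 33.6 to 38.0 CPM in siHnrnpd and 34.8 to 42.8 CPM in control libraries. Of 12 fibroblast and mesenchymal markers 10 reached 1 CPM, with summed levels of 10021 to 12278 CPM in siHnrnpd and 9844 to 10821 CPM in control. Epithelial markers had 0 of 4 rows at 1 CPM (0.0918 to 0.241 CPM summed in siHnrnpd, 0.160 to 0.194 CPM in control), macrophage markers 1 of 6 (2.80 to 3.71 CPM in siHnrnpd, 3.01 to 3.38 CPM in control), and supporting cell and prosensory markers 5 of 6 (119 to 156 CPM in siHnrnpd, 130 to 141 CPM in control). Those 5 were Jag1, Hes1, Fgfr3, Cdkn1b and Lfng. Of the same list of 10, Sox2, Hes5, Gjb2 and Gjb6 had no matched row, and Prox1 did not reach 1 CPM. The epithelial entries Krt18, Krt19, Cldn4 and Ocln and the macrophage entries Cd163 and Tyrobp had no matched row either. The siHnrnpd 3 library stood apart in the mean level of secreted senescence-associated factors, as given below. The results of the 9 genes are therefore also given without siHnrnpd 3 where they move.

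Of the 9 marker genes, edgeR's quasi-likelihood test called 0 at an adjusted p under 0.05 over all tested genes, where it called 0.0815% of all tested genes (0.0245% higher, 0.0571% lower). At an unadjusted p under 0.05 there were 2, Glb1 and Cdkn2b, both lower, where 11.0% of all tested genes passed (5.84% higher, 5.20% lower). DESeq2 called 1 of the 9 (Glb1, lower), and 1.41% of the 11453 genes to which it gave an adjusted p, and limma-voom called 0 of the 9. The groups did not overlap in the same 2 of the 9 genes, both lower, as in 17.0% of all tested genes (8.42% higher, 8.57% lower). Their share of non-overlapping genes, 2 of 9, thus lay near that of all genes. Log2 changes (siHnrnpd over control) were positive in 4 genes and negative in 5, with a median of -0.01 beside 0.0054 over all tested genes. For 8 of the 9 the 95% interval of the change lay within 1.5-fold in either direction, as it did for 76.4% of all tested genes. Rb1 was the exception.

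**Figure D1:**
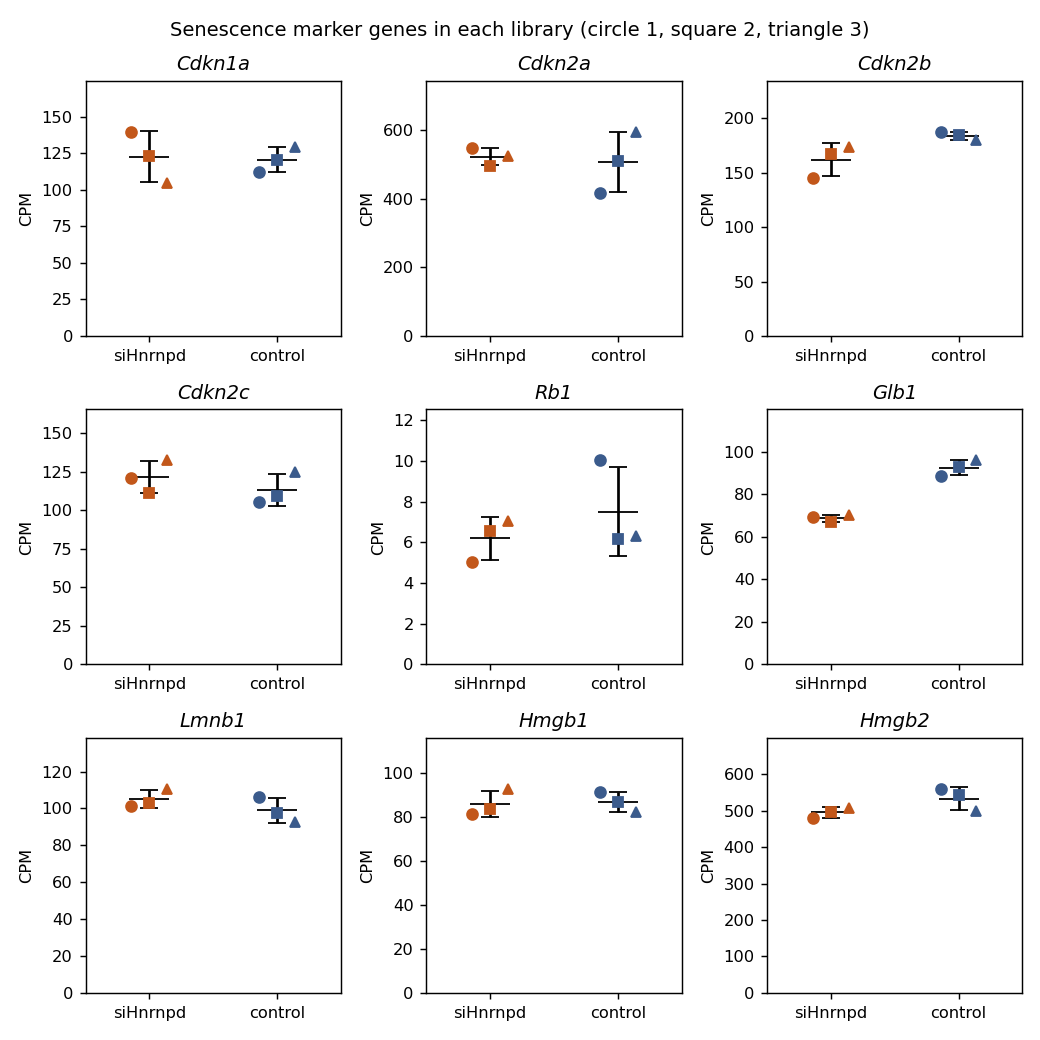
CPM of each of the 9 senescence marker genes (vertical axis, from 0) in 3 siHnrnpd and 3 control libraries, with 1 symbol per library; horizontal and vertical bars are the group mean and SD. Glb1 and Cdkn2b are the genes in which all siHnrnpd libraries lie below all control libraries, and for Cdkn2a the controls run between 417 and 594 CPM, on both sides of the siHnrnpd libraries.

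**Figure D2:**
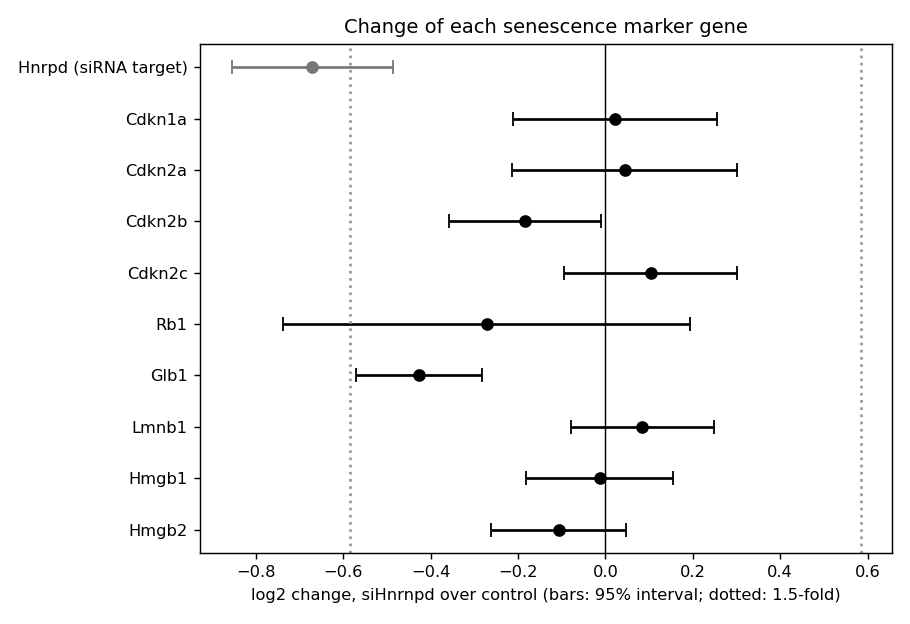
Log2 change of each marker gene and of the siRNA target Hnrpd, siHnrnpd over control, with its 95% interval from the edgeR fit; dotted lines mark 1.5-fold. The intervals of Glb1 and Cdkn2b lie below 0, and that of Rb1 is the one marker interval that passes a dotted line.

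Glb1 (ENSRNOG00000010196, chromosome 8) encodes the lysosomal beta-galactosidase whose activity is stained in senescence assays. It was the marker that differed most: 69.5, 67.0 and 70.1 CPM in siHnrnpd 1 to 3, against 88.9, 92.8 and 96.0 CPM in controls 1 to 3. The lowest control library lay well above the highest siHnrnpd library, and both groups were tight, with the highest library at 1.05 times the lowest in siHnrnpd and 1.08 times in control. The log2 change was -0.43 (SE 0.064), with a 95% interval of -0.57 to -0.28, or 0.674- to 0.822-fold of control. It missed the threshold over all genes (edgeR adjusted p = 0.0613), ranking 14 of all tested genes by p. DESeq2 called it lower (adjusted p = 4.38e-05), as did edgeR without a filter on low counts (adjusted p = 0.00592) and with genes kept only from 50 counts in 3 libraries upward (adjusted p = 0.0499); over all 16 alternatives the adjusted p ran from 4.38e-05 to 0.432 and the log2 change from -0.47 to -0.39. Without siHnrnpd 3 it was -0.45 (edgeR adjusted p = 0.0625). An exact two-sided permutation test on CPM gave p = 0.1, the smallest value that 3 against 3 libraries allow. By the authors' FPKM, Glb1 had 21.1, 20.1 and 21.8 in siHnrnpd 1 to 3 and 26.7, 27.6 and 29.4 in controls 1 to 3, with no overlap either.

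The Glb1 promoter is shown because Glb1 was the marker with the clearest difference and because genes of lysosomal proteins often carry the E-box CACGTG, the core of the site read by the MiT/TFE family of lysosomal regulators. The window, from RefSeq on the rat build GRCr8, is chr8:122963468-122963767 on the + strand, and runs from 250 bases before to 50 after the annotated start; capitals mark the E-box, which begins 100 bases before the start.

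Glb1 promoter: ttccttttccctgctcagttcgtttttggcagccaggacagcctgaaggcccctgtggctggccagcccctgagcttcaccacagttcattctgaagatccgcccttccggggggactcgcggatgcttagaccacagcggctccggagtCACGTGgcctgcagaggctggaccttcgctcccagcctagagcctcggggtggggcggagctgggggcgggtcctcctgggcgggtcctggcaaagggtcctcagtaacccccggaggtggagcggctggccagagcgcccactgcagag

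All 9 markers matched a promoter window from that source. For Cdkn2a, which has separate first exons for p16 and Arf, only the start annotated there was searched. Which of its transcripts begins at that start was not determined. CACGTG, which reads the same on both strands, was found in 2 of the 9 windows, those of Glb1 and Lmnb1, and in 6.42% of all 33469 windows of 300 bases. The longer form TCACGTGA, also the same on both strands and containing CACGTG, was in 0 of the 9 and in 0.777% of all windows. The E2F-type letters TTTCCCGC, searched on both strands, were found in the Rb1 window and in 0.974% of all windows, and TTTGGCGC in 0 of the 9 and 0.493% of all. Since the build behind the count table is not settled, these windows describe the reference genes and not the reads.

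Other lysosomal genes were set beside Glb1. Among 16 tested lysosomal glycosidases and partners of Glb1, 0 were called by edgeR or DESeq2, 1 lower and 0 higher genes had an unadjusted p under 0.05, and the median log2 change was -0.025. That 1 gene was Ctsa, protective protein/cathepsin A, which holds Glb1 and the sialidase Neu1 in one complex. Ctsa had 729, 676 and 722 CPM in siHnrnpd 1 to 3, against 794, 852 and 867 CPM in controls 1 to 3, without overlap (log2 change -0.24, SE 0.068; edgeR adjusted p = 0.285). Neu1 had a log2 change of -0.01, with a 95% interval of -0.26 to 0.23. The Glb1-like genes Glb1l and Glb1l2 had log2 changes of -0.08 and 0.16, the second at a mean of 0.586 CPM in siHnrnpd and 0.530 CPM in control. These last 3 genes are given for their relation to Glb1, a choice made after their values were seen. Gaa (acid alpha-glucosidase) and Naglu (an enzyme of heparan sulfate breakdown) had log2 changes of 0.19 and 0.12, each with overlap between groups (edgeR adjusted p = 0.495 and 0.684).

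Within each library, Glb1 relative to the mean log2 CPM of those 16 genes stood at 0.66, 0.72 and 0.85 in siHnrnpd 1 to 3, against 1.13, 1.20 and 1.19 in controls 1 to 3. The groups did not overlap, and the difference was -0.43 (exact two-sided permutation p = 0.1, the smallest possible). Glb1 by itself already differed without overlap, while the median log2 change of the 16 genes was only -0.025. The outcome was thus largely built in and is no separate result. The mean also gave genes with few counts, such as Manba and Glb1l2, the same weight as the others. Of 13 further lysosomal genes tested, 4 lower and 0 higher genes had an unadjusted p under 0.05, none was called by edgeR, DESeq2 called 1 lower (Lamp1), and the median was -0.07. Lamp1, an abundant lysosomal membrane glycoprotein, had 871, 852 and 964 CPM in siHnrnpd 1 to 3, against 1082, 1101 and 1105 CPM in controls 1 to 3 (log2 change -0.29; edgeR adjusted p = 0.203, DESeq2 adjusted p = 0.0145). Gm2a, the GM2 ganglioside activator, and Lamp2, a second membrane glycoprotein, each had a log2 change of -0.27, with edgeR adjusted p of 0.269 and 0.333. Lamp2 overlapped between groups and Gm2a did not.

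**Figure D3:**
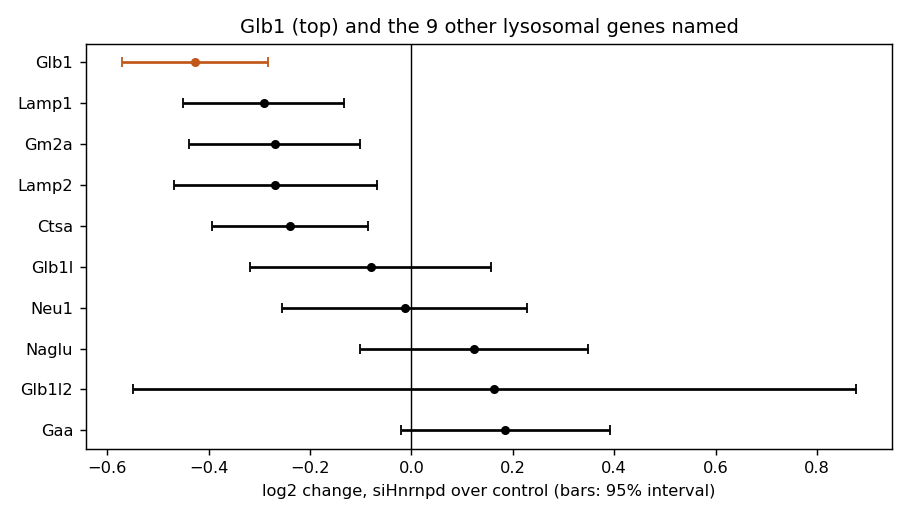
Log2 change (siHnrnpd over control) with 95% interval of Glb1, at the top, and of the 9 other lysosomal genes named in the text, in order of their change. Glb1 has the lowest estimate of those plotted, -0.43, and the intervals of Lamp1, Gm2a, Lamp2 and Ctsa also lie below 0.

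The genes whose profile over the 6 libraries lay nearest to that of Glb1, by root-mean-square distance between mean-centred log2 CPM values, were Enoph1 (distance 0.034), the row listed as Tas1r2 (0.051), Csf1 (0.053), Arl11 (0.058) and Tmem164 (0.058). Enoph1 encodes an enzyme of methionine salvage and Csf1 the macrophage growth factor. Because they were picked by likeness to Glb1, lower levels in siHnrnpd were built into the choice, and their changes and calls are no separate result. All 5 were lower in each siHnrnpd library than in any control library, with log2 changes of -0.46, -0.51, -0.44, -0.33 and -0.33 in that order. Of these only the Tas1r2 row was called by edgeR (adjusted p = 0.0445); the table names it after a taste receptor gene.

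Cdkn2a, Cdkn2b and Cdkn2c encode inhibitors of the INK4 family, which bind Cdk4 and Cdk6; a further gene of that family, Cdkn2d, had no matched row and was not analysed here. None of the 3 was called, and Cdkn2b did not overlap between groups. Cdkn2b (ENSRNOG00000006735, chromosome 5), the gene of p15, had 145, 167 and 174 CPM in siHnrnpd 1 to 3, against 187, 185 and 180 CPM in controls 1 to 3. All siHnrnpd libraries lay below all controls, although siHnrnpd 3 came within a few CPM of control 3. The log2 change was -0.18 (SE 0.077, 95% interval -0.36 to -0.0096), the unadjusted p was 0.0406 and the edgeR adjusted p 0.433. Without siHnrnpd 1, its lowest library, the log2 change was -0.11 (edgeR unadjusted p = 0.139, adjusted p = 0.753), and without siHnrnpd 3 it was -0.25 (unadjusted p = 0.0124, adjusted p = 0.319). The unadjusted p was also above 0.05 with upper-quartile scaling (0.0575), on log2(FPKM + 1) (0.0699), and without siHnrnpd 2 or any 1 of the controls (0.0502 to 0.0953).

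Cdkn2a (ENSRNOG00000059837, chromosome 5), which encodes both p16 and the p53 activator Arf from separate first exons, had 547, 496 and 524 CPM in siHnrnpd 1 to 3, against 417, 508 and 594 CPM in controls 1 to 3. The siHnrnpd libraries lay inside the range of the controls, whose highest library had 1.42 times the lowest; of 9176 genes averaging 5 CPM or more, 4.10% spread as far or farther in the controls. The log2 change was 0.04 (95% interval -0.21 to 0.30; edgeR adjusted p = 0.915), and without control 1 its sign turned, at -0.09. The table has 1 count per gene, so p16 and Arf transcripts could not be separated. Cdkn2c (ENSRNOG00000008956, chromosome 5), the gene of p18, had 121, 111 and 132 CPM in siHnrnpd 1 to 3, against 105, 109 and 125 CPM in controls 1 to 3, with overlap and a log2 change of 0.10 (95% interval -0.09 to 0.30; edgeR adjusted p = 0.702).

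Cdkn1a (ENSRNOG00000000521, chromosome 20), the p53-induced inhibitor p21, had 140, 123 and 105 CPM in siHnrnpd 1 to 3, against 112, 120 and 129 CPM in controls 1 to 3. Its siHnrnpd libraries held both the highest and the lowest value of the 6, and the log2 change was 0.02 (95% interval -0.21 to 0.25; edgeR adjusted p = 0.961). The estimate was 0.11 without siHnrnpd 3, -0.08 without siHnrnpd 1 and -0.04 without control 1. Of 3 other Cdk inhibitors tested (Cdkn1b, Cdkn1c and Cdkn3), 0 were called by edgeR or DESeq2 and 0 passed an unadjusted p of 0.05. Cdkn1c, the gene of p57, had a log2 change of 0.73 at 0.660 ± 0.24 CPM in siHnrnpd and 0.398 ± 0.046 CPM in control (SD, n = 3 each; edgeR adjusted p = 0.461). DESeq2 gave no adjusted p for it.

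Rb1 (ENSRNOG00000016029, chromosome 15), the gene of the protein that Cdk4 and Cdk6 phosphorylate, was by far the lowest of the markers. It had 176, 217 and 230 counts, or 5.03, 6.55 and 7.04 CPM, in siHnrnpd 1 to 3, against 291, 193 and 228 counts, or 10.03, 6.19 and 6.31 CPM, in controls 1 to 3. Control 1 was high and the other 2 controls lay among the siHnrnpd libraries. The log2 change was -0.27 (SE 0.21, 95% interval -0.74 to 0.19; edgeR adjusted p = 0.665), and without control 1 it was -0.02. The interval reached 0.600-fold on its low side and 1.14-fold on its high side, the widest of the 9 genes.

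Around Rb1, 19 genes of the cyclin D, cyclin E, Cdk and E2F group were tested. By edgeR and DESeq2 0 were called, at an unadjusted p under 0.05 the higher genes were 1 and the lower 3, and the median was 0.0089. Ccnd1, the G1 cyclin that partners Cdk4, had 181, 187 and 238 CPM in siHnrnpd 1 to 3, against 158, 149 and 168 CPM in controls 1 to 3, without overlap (log2 change 0.35; edgeR adjusted p = 0.310). Ccne1, the cyclin of Cdk2, and the E2F family genes E2f6 and E2f2 had log2 changes of -0.18, -0.18 and -0.27 (edgeR adjusted p = 0.362, 0.347 and 0.362). Among 18 proliferation genes that E2F factors drive, 0 passed at an unadjusted p under 0.05 and 0 were called by either tool, while 15 had a negative and 3 a positive log2 change, with a median of -0.02. Bub1, a spindle checkpoint kinase, had the smallest p of these (log2 change -0.29, edgeR adjusted p = 0.455).

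Of 15 tested p53 and Arf pathway genes, 0 were called by edgeR or DESeq2, and an unadjusted p under 0.05 was reached by 3 higher and 0 lower genes. Among them Bax, the apoptosis effector, and Mdm4, an inhibitor of p53, had log2 changes of 0.25 and 0.35 (edgeR adjusted p = 0.341 and 0.352), each without overlap between groups. The median over the list was 0.014. Among 14 Polycomb and other regulators of the Cdkn2a locus, 0 were called by either tool, 1 was lower at an unadjusted p under 0.05 and the median was 0.066. Ezh2, the Polycomb methyltransferase, had a log2 change of -0.19 (edgeR adjusted p = 0.465).

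Lmnb1 (ENSRNOG00000013774, chromosome 18), whose lamin B1 lines the inner nuclear membrane, had 102, 103 and 111 CPM in siHnrnpd 1 to 3, against 106, 97.8 and 92.9 CPM in controls 1 to 3. The groups overlapped, and the log2 change was 0.08 (95% interval -0.08 to 0.25; edgeR adjusted p = 0.709), and the interval reached 0.946-fold on its low side. Of 11 other nuclear envelope genes tested, 0 were called by edgeR or DESeq2, and 1 was higher at an unadjusted p under 0.05, with a median of 0.07. That gene was Lmna, encoding lamins A and C, at 815, 739 and 804 CPM in siHnrnpd 1 to 3, against 645, 690 and 736 CPM in controls 1 to 3 (log2 change 0.19; edgeR adjusted p = 0.413).

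Hmgb1 and Hmgb2 encode DNA-bending chromatin proteins, and Hmgb1 is also released as an alarm signal. Hmgb2 (ENSRNOG00000013167, chromosome 16) had 480, 498 and 509 CPM in siHnrnpd 1 to 3, against 560, 542 and 498 CPM in controls 1 to 3. Control 3 lay among the siHnrnpd libraries, and the log2 change was -0.11 (SE 0.069, 95% interval -0.26 to 0.05; edgeR adjusted p = 0.594). Hmgb1 (ENSRNOG00000029813, chromosome 12) had 81.4, 83.7 and 92.6 CPM in siHnrnpd 1 to 3, against 91.3, 86.6 and 82.1 CPM in controls 1 to 3. The groups covered nearly the same range, with a log2 change of -0.01 (95% interval -0.18 to 0.16; edgeR adjusted p = 0.968).

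The Hmgb1 count is uncertain, because a second row on chromosome 16, AC135696.1, is described in the table as Hmgb1 mRNA and held 43.7%, 51.4% and 44.0% of the counts of both rows in siHnrnpd 1 to 3, and 53.1%, 51.3% and 45.4% in controls 1 to 3. That row had 63.3, 88.6 and 72.7 CPM in siHnrnpd 1 to 3, against 104, 91.2 and 68.2 CPM in controls 1 to 3. With both rows summed, a choice made after the data were seen, Hmgb1 had 145, 172 and 165 CPM in siHnrnpd 1 to 3, against 195, 178 and 150 CPM in controls 1 to 3, and a log2 change of -0.12 (95% interval -0.35 to 0.12; edgeR adjusted p = 0.719). A pseudogene row, Hmgb1-ps3, held 23 to 25 counts in siHnrnpd and 18 to 31 in control.

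Among 11 other HMG-box and HMG-type genes tested, 0 were called by edgeR or DESeq2, 2 higher genes and 1 lower gene had an unadjusted p under 0.05, with a median of -0.0052. The 2 higher were Hmga2 and Hmga1, whose proteins bind AT-rich DNA and have been found in the senescence-associated heterochromatin of human fibroblasts. Hmga2 had 4.31, 4.20 and 5.17 CPM in siHnrnpd 1 to 3, against 2.17, 2.69 and 3.32 CPM in controls 1 to 3, without overlap (log2 change 0.73, SE 0.18; edgeR adjusted p = 0.209). Hmga1 had a log2 change of 0.17 (edgeR adjusted p = 0.414), and the nucleosome-binding Hmgn1 one of -0.22 (edgeR adjusted p = 0.397).

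Levels between genes were compared per length, on the authors' FPKM. Cdkn2a stood highest in both groups, at 492 ± 27.6 FPKM in siHnrnpd and 472 ± 87.2 FPKM in control, followed by Hmgb2 at 370.4 ± 15.5 FPKM in siHnrnpd and 394 ± 19.4 FPKM in control (SD, n = 3 each). Over all 6 libraries these 2 genes lay at percentiles 97.9 and 97.4 of the 10212 genes with a mean of at least 1 FPKM. Hmgb1, Cdkn2c, Cdkn1a and Lmnb1 came next, at means of 104, 73.1, 54.0 and 42.1 FPKM in siHnrnpd and 104, 67.2, 52.7 and 39.2 FPKM in control. Rb1 was last, at 1.71 ± 0.30 FPKM in siHnrnpd and 2.05 ± 0.59 FPKM in control (SD, n = 3 each), percentile 9.95.

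The order of the 9 levels was the same in both groups but for 1 exchange. In siHnrnpd Cdkn2b, at 24.7 ± 2.51 FPKM, stood above Glb1, at 21.0 ± 0.823 FPKM, and their ranges were apart. In control Glb1, at 27.9 ± 1.36 FPKM, and Cdkn2b, at 27.8 ± 0.415 FPKM, overlapped (SD, n = 3 each). In control the ranges of Cdkn2a and Hmgb2 overlapped as well, and all other neighbours in the order were apart in both groups. The FPKM of Cdkn2a was 23.2, 18.3 and 18.6 times that of its neighbour on the chromosome, Cdkn2b, in siHnrnpd 1 to 3, against 13.7, 17.0 and 20.3 times in controls 1 to 3, so the ratio also overlapped.

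**Figure D4:**
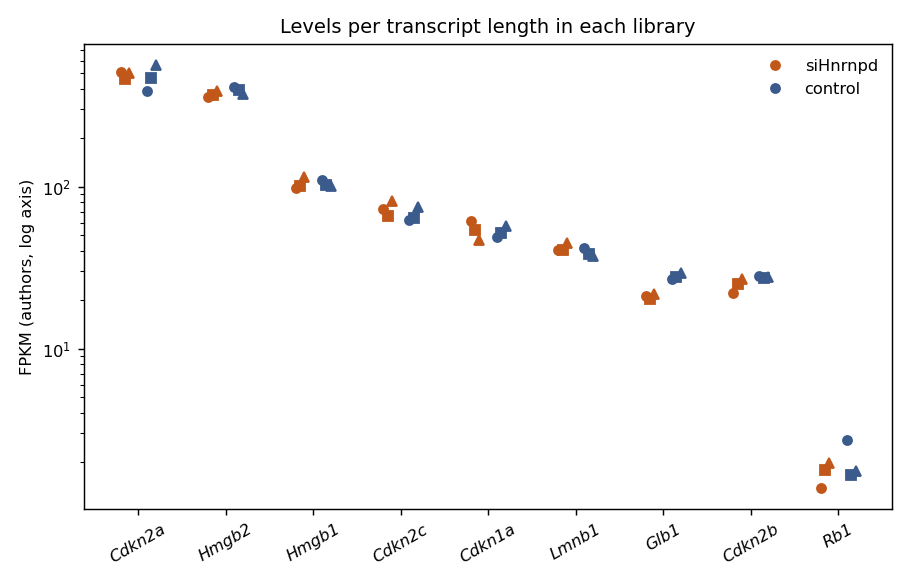
Authors' FPKM of the 9 marker genes on a log axis, ordered by control mean; each symbol is 1 library (circle 1, square 2, triangle 3), siHnrnpd left of control for each gene. Cdkn2a and Hmgb2 lie above 350 FPKM, Rb1 below 3 FPKM, and the remaining genes between.

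The markers did not vary alike among the controls. Cdkn1a, Cdkn2a, Cdkn2c and Glb1 were highest in control 3 and lowest in control 1, whereas Cdkn2b, Lmnb1, Hmgb1 and Hmgb2 were highest in control 1 and lowest in control 3. Control 1 was the shallowest library, with 28984535 counts, and control 3 the deepest, with 35842904. The proliferation list moved with the second set, at 0.06 and -0.08 from the control mean on the log2 scale in controls 1 and 3. The part of depth or of proliferation in this difference was not tested. In siHnrnpd, Cdkn2b, Cdkn2c, Rb1, Glb1, Lmnb1, Hmgb1 and Hmgb2 were highest in siHnrnpd 3, and Cdkn1a was lowest there.

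Senescent cells also secrete cytokines, proteases and growth factors, and 22 such genes passed the filter. By edgeR 0 were called, 3 higher and 7 lower genes had an unadjusted p under 0.05, DESeq2 called 1 higher and 5 lower, and the median log2 change was -0.17. Without siHnrnpd 3 the median was -0.08, and over all 16 alternatives it ran from -0.20 to -0.03. Cxcl12, Ccl2 and Csf1 were among the lower genes, with log2 changes of -0.49, -0.74 and -0.44 (edgeR adjusted p = 0.0676, 0.0804 and 0.0900). The list's mean log2 level, set against its control mean, was -0.06, -0.03 and -0.40 in siHnrnpd 1 to 3, and -0.04, 0.02 and 0.02 in controls 1 to 3. By this mean the siHnrnpd 3 library was the low one for secreted factors, while Glb1 differed by no more than 1.05 times among the siHnrnpd libraries. Not all of the secreted genes followed that mean. Cxcl12 was lowest in siHnrnpd 3, and Ccl2 only narrowly so (192, 260 and 189 CPM in siHnrnpd 1 to 3). Csf1 was highest there (333, 339 and 366 CPM in siHnrnpd 1 to 3). Without siHnrnpd 3 the log2 changes of Cdkn2a, Cdkn2c, Rb1, Lmnb1, Hmgb1 and Hmgb2 were 0.03, 0.03, -0.38, 0.04, -0.08 and -0.14, and edgeR called 0 of the 9 marker genes. Over the 10 lists together, 142 genes were tested, edgeR called 0 and limma-voom 0, DESeq2 called 7, and 27 (19.0%) passed an unadjusted p of 0.05. DESeq2 called 1.41% of the 11453 genes to which it gave an adjusted p. Of all genes tested by edgeR, 11.0% passed an unadjusted p of 0.05. The lists were chosen with earlier results known.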

How the data were processed

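Per the labels, total RNA from 6 libraries was sequenced as paired ends. TopHat2 and the build mRatBN7.2 are named in the submitters' processing notes, with no version of the tool; for the counter, its strand setting and the annotation the sources used here give nothing, so reads of antisense or overlapping genes may be mixed. The authors deposited read counts per gene (18718 rows, not normalized) and FPKM values (18628 rows), and 0 columns had no sample.

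The test on counts was edgeR 4.0.16 under R 4.3.3 (TMM, filterByExpr, quasi-likelihood fit, group as the only term) with Benjamini-Hochberg adjustment over 12268 genes; 95% intervals come from that fit. The procedure was tested on simulated data. DESeq2 1.42.0, limma 3.58.1 and other settings were alternatives. The median SE of a log2 change was 0.10. In all 15 library pairs the counts differed beyond sampling noise. Of 213 list entries, 194 matched by symbol, 1 by a RefSeq synonym (GRCr8) and 18 did not match. List genes named are the 4 with the smallest p per list at most, unless said otherwise. Some list genes are not reported here by name. Members and lists were chosen with earlier results of these data known.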

Additional observations from a re-analysis of the deposited data

How the results depend on the processing

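Glb1 kept its negative sign in all 16 alternatives and was called lower in 3: DESeq2 (log2 change -0.43), no filter (-0.43) and at least 50 counts in 3 libraries (-0.43). Each of these 3 called 1 marker gene, and every other alternative called 0 (edgeR with the replicate block, 1 at an unadjusted p under 0.05, Cdkn2b then being at 0.0644). Cdkn2b, Rb1 and Hmgb2 stayed negative and Cdkn2c and Lmnb1 positive in all 16. Leaving out 1 library gave -0.082 to 0.11 for Cdkn1a, -0.088 to 0.17 for Cdkn2a and -0.081 to 0.025 for Hmgb1, so their signs are unsettled. Hmgb1 was 0.0024 on log2(FPKM + 1), with or without a minimum, and 0.0024 on log2(FPKM + 0.1).

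Over all genes, edgeR called 10, 3 higher and 7 lower. DESeq2 called 162 (55 higher, 107 lower) and 7 list genes; no filter gave 147 (46 higher, 101 lower) and 7. Limma-voom called 5 higher, as did the minimum of 50 counts. Scaling by the upper quartile called 6, with 3 lower. On log2(FPKM + 0.1) limma called 5 (1 higher, 4 lower), and on log2(FPKM + 1) it called 0, with 0 lower and 0 higher, with and without a minimum (1157 and 1604 at an unadjusted p under 0.05). Leaving out 1 library gave 0 to 14 genes, 0 to 7 higher, 0 to 7 lower and 0 to 1 list genes: 0 without control 1, 2 or 3 (964, 724 and 1919 at an unadjusted p under 0.05), 1 without siHnrnpd 1 (0 higher), 7 without siHnrnpd 2 (1 higher) and 14 without siHnrnpd 3 (7 higher). The causes were not tested. With the replicate number as a block, calls numbered 0, with 0 lower and 0 higher (1062 unadjusted p under 0.05). Same-numbered libraries correlated at -0.26, 0.14 and 0.10 in their deviations from the group means. The highest value was 0.23, of siHnrnpd 2 with control 1, and siHnrnpd 1 correlated best with control 3 (0.22). Deviations from a mean of only 3 libraries are tied to each other, so these values cannot decide whether the numbers pair the libraries. Of 160 list medians under the alternatives, 13 moved by more than the SD between libraries, and the median of 5 of the 10 lists took the other sign in at least 1 alternative. Rb1 had the fewest counts of the 9 genes.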
